A study of Mus musculus with 6 samples.

Results

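The miR-23/27/24 family is made from 2 clusters of microRNA (miRNA) hairpins, an a cluster (miR-23a, miR-27a and miR-24) and a b cluster (miR-23b, miR-27b and miR-24). Its members were taken by name from the deposited miRNA table as the 3p arms, the strand cut from the 3′ side of each hairpin, and gave 5 of the 718 entries of the table: mmu-miR-23a-3p, mmu-miR-27a-3p, mmu-miR-23b-3p, mmu-miR-27b-3p and mmu-miR-24-3p, written without the species prefix from here on. Small extracellular vesicles (sEVs) were collected from the medium of cultured islets of wild-type C57/B6J mice, and their small RNA was sequenced in 6 libraries. The 3 nid-sEV libraries (normal islet-derived) came from mice on a normal chow diet (NCD), and the 3 aid-sEV libraries (adaptive islet-derived) came from mice on a high-fat diet (HFD). Both groups shared the genotype and strain, and no other treatment was labelled. The age of the mice, the weeks of diet and the number of mice behind each library were not in the labels, which do not say whether replicates were separate preparations. The methods state biological replication for the experiments in general, without describing these libraries. The p-values measure the spread between the libraries, which may in part be technical.

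A miRNA guides the Argonaute protein to messenger RNAs that pair with its seed, the bases from position 2 to position 8, and lowers the output of those messengers. The miR-23 and miR-27 families are known for promoting the growth of new vessels by endothelial cells, miR-27 also for holding back fat cell formation through PPARγ, and miR-24 for roles in vessels and in pancreatic beta cells. Hairpins of one cluster are cut from the same primary transcript, so their partners start out together and their mature levels are set afterwards by processing and turnover.

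The sequences are shown because partners of the 2 clusters differ by so little, and because the antisense product of the miR-24 loci is described further on. The RefSeq table (GRCm38.p6) matched 4 of the 5 members, all but miR-23b-3p. They are printed 5′ to 3′ with the seed in capitals, and the antisense arm miR-3074-5p stands last:
miR-23a-3p: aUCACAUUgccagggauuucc
miR-27a-3p: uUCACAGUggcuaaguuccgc
miR-27b-3p: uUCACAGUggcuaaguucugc
miR-24-3p: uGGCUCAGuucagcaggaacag
miR-3074-5p: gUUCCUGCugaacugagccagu

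Counted from 1 at the 5′ end, miR-27a-3p and miR-27b-3p had the same seed and differed at 1 of 21 bases, C19U. The seeds of miR-23a-3p and miR-27a-3p differed at 1 of 7 bases, U7G. miR-24-3p was listed for the hairpins of both clusters, so its reads could not be divided between them. The split of reads between the nearly identical miR-27 partners rests on that single base. No sequence of miR-23b-3p was at hand to compare with miR-23a-3p. The split of the miR-23 reads therefore rests on the authors' counting step, which is not described. Among the listed entries with a sequence, no entry outside the family had the seed of one of these 4 members at bases 2 to 8. The letters of the miR-27 seed were also found from base 1 of miR-128-3p, which was at 201, 503 and 297 RPM in the nid-sEVs and 687, 429 and 384 RPM in the aid-sEVs, with overlapping groups.

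In GRCm38.p6 the a cluster lay on the plus strand at chr8:84208518-84208921, a span of 404 bases. No protein-coding gene overlapped it, and the end of the Mir24-2 hairpin met the start of the lincRNA Gm26532. The b cluster lay on the plus strand at chr13:63300484-63301275, a span of 792 bases, within the protein-coding gene 2010111I01Rik (Aopep in RefSeq). Mir23b was intronic there. Mir27b overlapped 1 exon and Mir24-1 overlapped 4 exons of non-coding or decay-targeted transcripts, and 0 exons of coding transcripts were overlapped. The hairpins Mir3074-2 and Mir3074-1 lay opposite Mir24-2 and Mir24-1 on the minus strand.

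The deposited values were RPM, reads of an entry scaled to a common library total, and the value of 1 read could be recovered from their steps in every library. The recovered totals were 50534 to 129152 reads in the nid-sEVs and 122266 to 519315 reads in the aid-sEVs. nid-sEV replicate 1 was slightly deeper than aid-sEV replicate 3, and the other nid-sEV libraries were shallower than all aid-sEV libraries. A count of 3 reads, the upper limit that a count of 0 allows, was 23.2 to 59.4 RPM in the nid-sEVs and 5.78 to 24.5 RPM in the aid-sEVs. nid-sEV replicate 1 stood apart with 33.4% of its reads in entries without a miRBase name, against 6.61% to 9.45% in the other libraries. nid-sEV replicate 3 stood apart with 34.6% of its reads in miR-375-3p, the most abundant beta cell miRNA, against 5.66% to 16.4% in the other libraries. Intervals given for single libraries are 95% Wilson intervals and cover counting error only.

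The 5 members together took 4.36%, 6.59% and 3.24% of the reads in the nid-sEVs and 4.03%, 2.74% and 4.06% in the aid-sEVs. The groups overlapped, with means of 47325 ± 17037 RPM in nid-sEVs and 36147 ± 7534 RPM in aid-sEVs (SD, n = 3 each). Most of these reads belonged to miR-27b-3p, which made up 68.6% to 82.0% of the family's reads. miR-24-3p made up 12.3% to 21.9%, and miR-23a-3p, miR-27a-3p and miR-23b-3p made up the rest. miR-27b-3p was highest and miR-24-3p next in all 6 libraries, with intervals that did not overlap. The order of the remaining members varied. miR-23a-3p was above miR-27a-3p in 5 of the 6 libraries, the exception being nid-sEV replicate 2, where their intervals overlapped. miR-23b-3p was the lowest member in the nid-sEVs and in aid-sEV replicate 1. Its interval overlapped that of miR-27a-3p in nid-sEV replicate 3 and in aid-sEV replicate 1. In aid-sEV replicates 2 and 3 miR-23b-3p was above miR-27a-3p, with intervals apart in replicate 2 and overlapping in replicate 3.

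**Figure D1:**
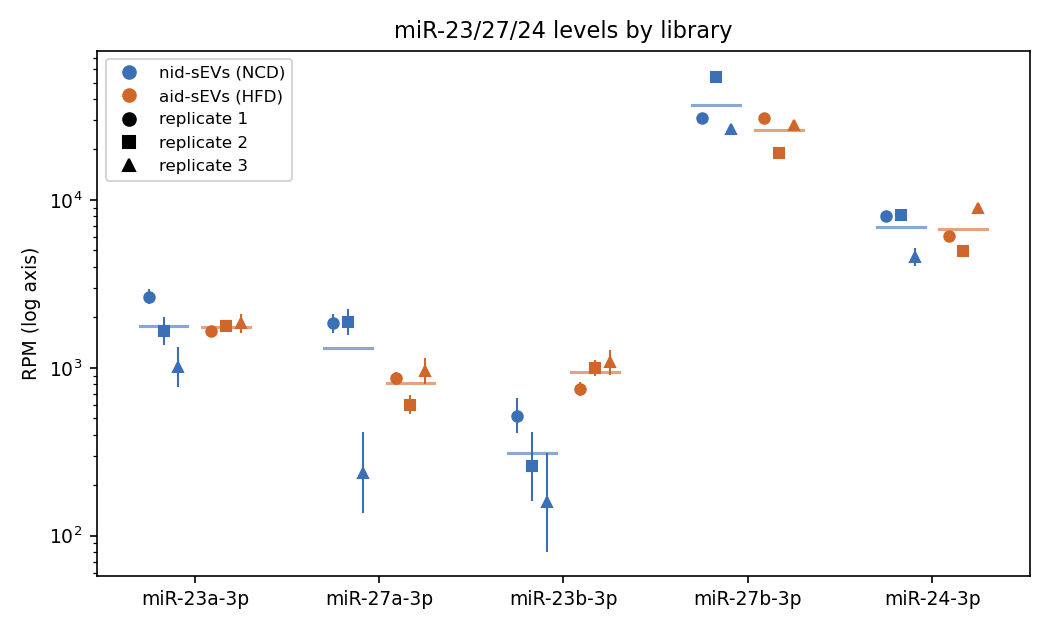
RPM of each member on a log axis in the 3 nid-sEV libraries (blue) and the 3 aid-sEV libraries (orange), with 95% Wilson intervals as vertical bars, where wider than the symbol, and group means as horizontal lines. Only miR-23b-3p had every aid-sEV library above every nid-sEV library, and miR-27a-3p in nid-sEV replicate 3 sat far below its other values.

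The question for each member was whether its level in the sEVs differed between diets. An entry was called where limma, fitted across all 718 entries, gave a p below 0.05 after Benjamini-Hochberg adjustment together with a log2 fold change beyond 1 in either direction. None of the 5 members was called. One member, miR-23b-3p, had an unadjusted p under 0.05. The same rule called 17.4% of all entries, with 112 higher and 13 lower in the aid-sEVs. It called 14.2% of the 219 entries detected in all 6 libraries, with 22 higher and 9 lower. Most of the higher calls were thus entries at 0 in at least 1 library. With edgeR's quasi-likelihood test and DESeq2 on the recovered reads, 0 of 5 members were called as well. The median log2 fold change was -0.04 over the 5 members, 1.11 over all entries and -0.21 over the entries detected in all 6 libraries. Libraries of the same depths were simulated with the same assumed spread for every entry. In them limma called 28.6% of entries above 100 RPM that had been changed by 2 on the log2 scale. A member that was not called could therefore still have differed.

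miR-23b-3p, the b cluster partner of miR-23a, had the largest log2 fold change of the 5 members. It was at 519, 259 and 158 RPM in the nid-sEVs, from 67, 17 and 8 reads. In the aid-sEVs it was at 747, 996 and 1080 RPM, from 388, 351 and 132 reads. Every aid-sEV library was above every nid-sEV library, and the nearest intervals did not overlap, with an upper bound of 659 RPM in nid-sEV replicate 1 and a lower bound of 676 RPM in aid-sEV replicate 1. It was the only 1 of the 5 members with such a separation, a pattern held by 24.2% of all entries and by 20.5% of those detected in all 6 libraries. Its mean was 312 ± 186 RPM in nid-sEVs and 941 ± 173 RPM in aid-sEVs (SD, n = 3 each), a ratio of 3.02. On the log2(RPM + 1) scale the fold change was 1.74 (SE 0.57), with a limma adjusted p of 0.096. Its rank among all entries was 101, 166 and 165 in the nid-sEVs and 95, 78 and 74 in the aid-sEVs, where 1 is the most abundant. With every library thinned to 50534 reads it was 1.86 (limma adjusted p 0.090). The call depended on scaling and on 1 library: it was made with TMM factors (2.24, limma adjusted p 0.047) and without nid-sEV replicate 1 (2.19, limma adjusted p 0.031). Over all alternatives the fold change stayed between 1.34 and 2.24, with adjusted p from 0.031 to 0.25.

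miR-23a-3p, its a cluster partner, was at 2656, 1660 and 1009 RPM in the nid-sEVs and 1656, 1783 and 1848 RPM in the aid-sEVs. The nid-sEV libraries were spread on both sides of the 3 closely spaced aid-sEV libraries. The means were 1775 ± 829 RPM and 1762 ± 97.8 RPM (SD, n = 3 each), and the log2 fold change was 0.10 (SE 0.45; limma adjusted p 0.91).

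miR-27b-3p, the most abundant member, was at 30561, 54012 and 26457 RPM in the nid-sEVs and 30945, 19081 and 27865 RPM in the aid-sEVs. Its highest value was in nid-sEV replicate 2 and its lowest in aid-sEV replicate 2, and the other libraries of both groups lay close together. It ranked between 3 and 15 among all entries. The means were 37010 ± 14866 RPM and 25964 ± 6156 RPM (SD, n = 3 each), with a log2 fold change of -0.47 (SE 0.36; limma adjusted p 0.42), which was 0.03 with TMM factors.

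miR-27a-3p, its partner in the a cluster, was at 1843, 1873 and 237 RPM in the nid-sEVs and 867, 605 and 957 RPM in the aid-sEVs. A single library, nid-sEV replicate 3 with 12 reads, lay below all the others, while nid-sEV replicates 1 and 2 lay above all aid-sEV libraries. The means were 1318 ± 936 RPM and 809 ± 183 RPM (SD, n = 3 each), with a log2 fold change of -0.24 (SE 0.88; limma adjusted p 0.89). Without nid-sEV replicate 3 the fold change was -1.22 (limma adjusted p 0.088), and without nid-sEV replicate 1 or replicate 2 it was 0.25 and 0.26.

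miR-24-3p, the product that both clusters encode, was at 8060, 8101 and 4571 RPM in the nid-sEVs and 6129, 4985 and 8899 RPM in the aid-sEVs. The highest and the lowest library belonged to opposite groups and the ranges overlapped nearly in full. The means were 6911 ± 2026 RPM and 6671 ± 2012 RPM (SD, n = 3 each), with a log2 fold change of -0.04 (SE 0.39; limma adjusted p 0.95), a value whose sign turned with the scaling (0.45 with TMM factors).

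**Figure D2:**
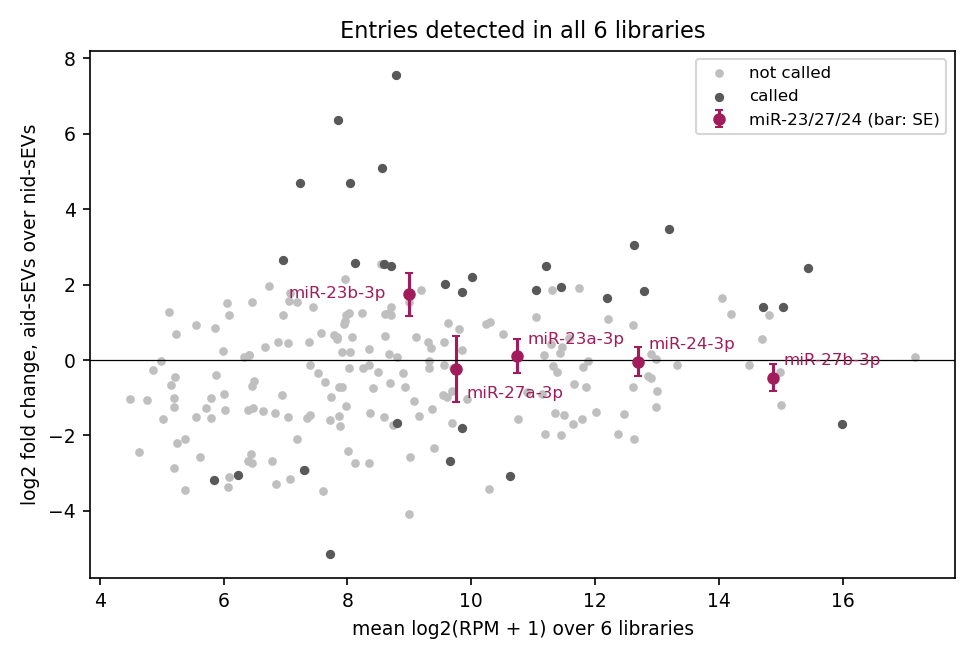
Log2 fold change of aid-sEVs over nid-sEVs against the mean log2(RPM + 1) over 6 libraries, for the 219 entries detected in all 6 libraries, dark where the call rule was met. The 5 members are marked with their standard errors; miR-23b-3p is at 1.74 and the other members lie between -0.47 and 0.10.

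Ratios of partners within a library do not depend on the library total. They show how reads of the a and b clusters compare in the same library. Reads of different sequences were not calibrated to numbers of molecules, so these are not ratios of molecules. The 2 pairs leaned in opposite directions. miR-23b-3p was below miR-23a-3p in 6 of 6 libraries, with a geometric mean ratio of 0.298, whereas miR-27b-3p was above miR-27a-3p in 6 of 6 libraries, with a geometric mean ratio of 34.7 (two-sided exact sign-flip permutation test, p = 0.03125 for each, the smallest possible, and 0.03125 after adjustment over both pairs). Within the b cluster, reads of miR-27b-3p were far above those of its neighbour miR-23b-3p, by 19.1 to 209 times. Within the a cluster, miR-27a-3p was at 0.235 to 1.13 times miR-23a-3p.

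The balance of the miR-23 pair lay further towards miR-23b in every aid-sEV library. miR-23b-3p was 16.3%, 13.5% and 13.6% of the miR-23 reads in the nid-sEVs and 31.1%, 35.9% and 36.9% in the aid-sEVs. The groups did not overlap, and the highest nid-sEV bound, 24.5%, was below the lowest aid-sEV bound, 28.6%. As ratios of miR-23b-3p to miR-23a-3p these were 0.195, 0.156 and 0.157 in the nid-sEVs and 0.451, 0.559 and 0.584 in the aid-sEVs. The difference in mean log2 ratio was 1.65, a 3.14-fold higher ratio in aid-sEVs (SD of the log2 ratio 0.19 and 0.20, n = 3 each). The two-sided exact permutation test gave p = 0.10, the smallest that 3 libraries against 3 allow, and 0.30 after adjustment over the 6 ratios tested. Leaving out any 1 library kept the log2 difference between 1.58 and 1.76. How the authors' counting divided reads between miR-23a-3p and miR-23b-3p is not described, and these shares rest on it.

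The miR-27 pair gave no such separation. miR-27b-3p was 94.3%, 96.6% and 99.1% of the miR-27 reads in the nid-sEVs and 97.3%, 96.9% and 96.7% in the aid-sEVs. The 3 aid-sEV libraries lay within the spread of the nid-sEV libraries, whose ends were replicates 1 and 3. The ratio of miR-27b-3p to miR-27a-3p was 16.6, 28.8 and 111 in the nid-sEVs and 35.7, 31.6 and 29.1 in the aid-sEVs (log2 difference -0.23, exact permutation p = 1.0), and without nid-sEV replicate 3 the difference was 0.55.

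**Figure D3:**
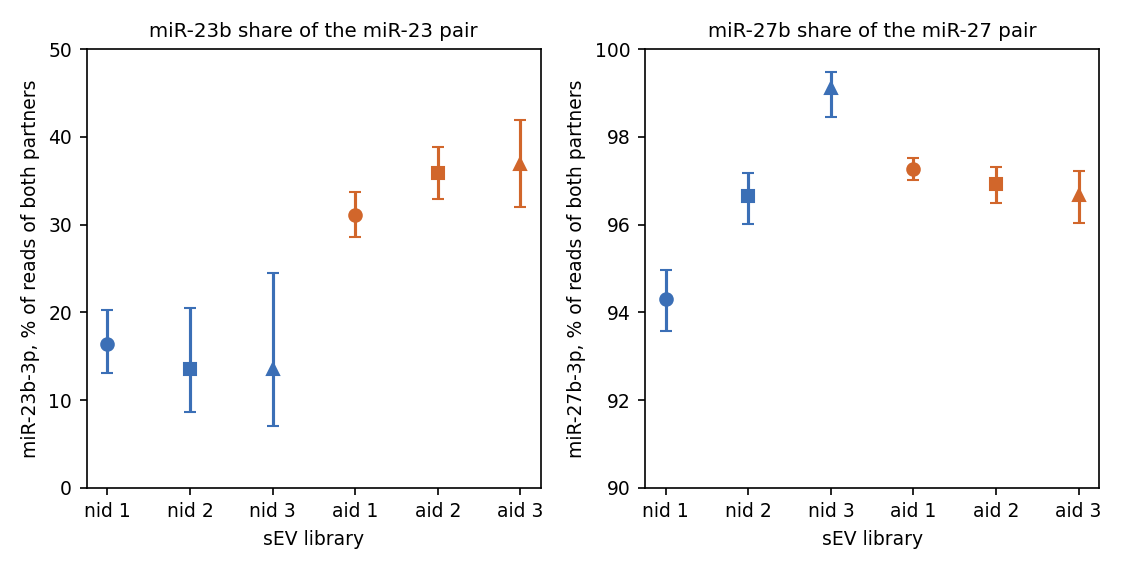
Share of miR-23b-3p in the reads of the miR-23 pair (left, axis from 0 to 50%) and of miR-27b-3p in the reads of the miR-27 pair (right, axis from 90 to 100%), for each library with 95% Wilson intervals. The miR-23b share was 13.5% to 16.3% in nid-sEVs (blue) and 31.1% to 36.9% in aid-sEVs (orange), while the miR-27b shares overlapped.

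Within the b cluster the gap between the neighbours was narrower in the aid-sEVs. The ratio of miR-27b-3p to miR-23b-3p was 58.9, 209 and 167 in the nid-sEVs and 41.4, 19.1 and 25.8 in the aid-sEVs. Every aid-sEV library was below every nid-sEV library, by 2.22 on the log2 scale in the means (0.215 times the nid-sEV ratio; exact permutation p = 0.10, 0.30 after adjustment over the 6 ratios). This ratio and that of the miR-23 pair share the miR-23b-3p reads, so they are not separate evidence. The a cluster ratio, miR-27a-3p to miR-23a-3p, was 0.694, 1.13 and 0.235 in the nid-sEVs and 0.523, 0.339 and 0.518 in the aid-sEVs, with overlapping groups (log2 difference -0.33, exact permutation p = 0.80, adjusted 0.96). The summed b cluster arms stood at 6.91, 15.4 and 21.3 times the a cluster arms in the nid-sEVs and 12.6, 8.41 and 10.3 times in the aid-sEVs, also overlapping (log2 difference -0.35, exact permutation p = 0.50, adjusted 0.75). miR-24-3p was at 0.227, 0.140 and 0.164 times the sum of the other members in the nid-sEVs and 0.179, 0.222 and 0.280 times in the aid-sEVs, again overlapping (log2 difference 0.37, exact permutation p = 0.30, adjusted 0.60).

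The opposite arms of the hairpins, the strands usually discarded, were rare. Of 9 named 5p and antisense arms, 7 had a row in the table, 1 was detected in all 6 libraries and none was called by limma. miR-23a-5p had 0, 0 and 0 reads in the nid-sEVs and 5, 1 and 4 reads in the aid-sEVs. miR-27a-5p had 1, 0 and 0 reads against 8, 1 and 1, miR-23b-5p had 1, 0 and 0 against 6, 9 and 1, and miR-27b-5p had 9, 3 and 0 against 13, 5 and 0. Of these 4 arms, miR-23a-5p had the lowest p (limma adjusted p 0.062), with every aid-sEV library above every nid-sEV library, as in 24.2% of all entries. All its aid-sEV values, 2.84 to 32.7 RPM, lay below the highest nid-sEV limit of 59.4 RPM. The a cluster arm miR-24-2-5p, which tells Mir24-2 from Mir24-1, had 1, 2 and 0 reads in the nid-sEVs and 54, 11 and 12 in the aid-sEVs. Its limma adjusted p was 0.19. As a share of the reads of both arms it was 0.166% over the pooled nid-sEV reads and 1.26% over the pooled aid-sEV reads. By library it was 0.0960%, 0.375% and 0% in the nid-sEVs and 1.67%, 0.623% and 1.09% in the aid-sEVs (exact permutation p = 0.10, the smallest possible, not adjusted). The count of 0 in nid-sEV replicate 3 allows a share of up to 1.30%, which is above the shares in aid-sEV replicates 2 and 3, so the groups were not separated at this depth. The same test of the other arm shares gave 0.10 for miR-23a-5p, miR-27a-5p and miR-3074-5p, 0.20 for miR-23b-5p and 0.50 for miR-27b-5p, also not adjusted. For miR-23a-5p, miR-27a-5p and miR-23b-5p the count of 0 in nid-sEV replicate 3 allows shares of up to 5.88%, 25.0% and 37.5%. Their highest aid-sEV shares were 1.74%, 1.75% and 2.50%, so these p-values do not show a separation of the groups.

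The antisense arm miR-3074-5p was the exception in abundance. Its 22 bases shared a run of 20 perfectly complementary bases with miR-24-3p, and its hairpins lie on the opposite strand of the same loci. Without a stated strand setting, the assignment of reads to that strand rests on the authors' counting. It was at 403, 838 and 455 RPM in the nid-sEVs, from 52, 55 and 23 reads, and at 266, 102 and 294 RPM in the aid-sEVs, from 138, 36 and 36 reads. Every aid-sEV library was below every nid-sEV library, as in 20.1% of the entries detected in all 6 libraries. The log2 fold change was -1.42 (SE 0.63; limma adjusted p 0.21). Against the reads of miR-24-3p and itself it made up 4.76%, 9.37% and 9.06% in the nid-sEVs and 4.16%, 2.01% and 3.20% in the aid-sEVs.

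**Figure D4:**
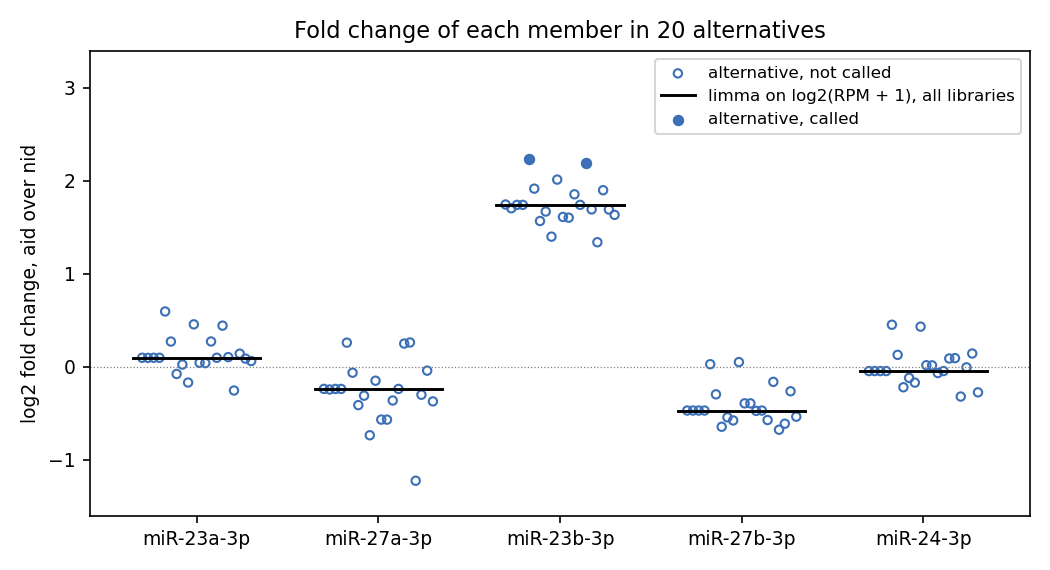
Log2 fold change of each member, aid-sEVs over nid-sEVs, in the limma fit on log2(RPM + 1) with all libraries (black line) and in 20 alternatives (circles, filled where the call rule was met). miR-23b-3p stayed between 1.34 and 2.24 and was called in 2 of them, and the values of the other members fell on both sides of 0.

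Other miRNAs of the pathways this family is known for were counted from 2 lists. Of 12 miRNAs linked to endothelial cells and vessel growth, 10 had a row, 1 (miR-296-5p, listed at 0 in the nid-sEVs and at 19.3, 71.0 and 8.18 RPM among aid-sEV libraries) was called higher in the aid-sEVs and 0 lower, and the median log2 fold change was -0.31. Of 18 linked to fat cells and lipid metabolism, 16 had a row, 0 were called higher and 2 lower (miR-122-5p, a liver miRNA, at -5.14 and miR-148a-3p, abundant in exocrine pancreas, at -1.69), with a median of 0.26. These counts stand beside the 17.4% of all entries that were called. For miR-296-5p, a count of 0 allows up to 23.2 to 59.4 RPM in the nid-sEV libraries. Its aid-sEV values of 19.3 and 8.18 RPM lay below those limits, and 71.0 RPM lay above them.

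Summed levels of several cell type marker lists were lower in the aid-sEVs. Beside these sums, 20.1% of single entries detected in all 6 libraries had every aid-sEV library below every nid-sEV library. The 6 leukocyte markers summed to 1999 to 5756 RPM in the nid-sEVs and 670 to 1415 RPM in the aid-sEVs, and the 5 red cell markers to 4274 to 12884 RPM and 728 to 1540 RPM, in both cases without overlap. Of these, 1 of 6 and 1 of 5 markers were called, miR-150-5p (log2 fold change -3.19) and miR-486a-5p (-3.07), both lower in the aid-sEVs, beside the 17.4% of all entries called. Most of the leukocyte sum was miR-146a-5p (means 3383 RPM in nid-sEVs and 1064 RPM in aid-sEVs), which was not called (limma adjusted p 0.15). The 4 exocrine pancreas markers also summed lower without overlap, at 95678 to 151102 RPM and 21585 to 59199 RPM, but nearly all of that sum was miR-148a-3p (means 118766 and 39079 RPM), and the other 3 overlapped between groups and were not called. The liver markers had 1 of 2 with a row, miR-122-5p, at 396 to 3000 RPM and 24.5 to 42.6 RPM. The 2 endothelial markers, miR-126a-3p and miR-126a-5p, summed to 989 to 3717 RPM and 679 to 1325 RPM, and the 7 listed mesenchymal markers to 9756 to 37421 RPM and 6938 to 15779 RPM, with overlapping groups. The 13 beta cell and endocrine markers summed to 93448 to 377429 RPM and 238840 to 248538 RPM, overlapping. Of the 13, 3 were called higher (miR-182-5p at 3.47, miR-183-5p at 3.05 and miR-7b-5p at 1.84 on the log2 scale) and 2 lower (miR-200b-3p at -1.68 and miR-200c-3p at -1.81). All 13 were detected in all 6 libraries, and 14.2% of such entries were called, against the 17.4% of all entries. The family is made in many of these cell types, the part of such RNA in the miR-23b-3p result was not tested, and in bulk vesicle RNA fewer vesicles of a cell type and less of a miRNA per vesicle cannot be told apart.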

How the data were processed

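Small RNA of islet sEVs was sequenced in 3 NCD and 3 HFD libraries, grouped by their titles. Per the labels, the authors used fastp 0.23.0, HISAT2 2.2.1 and GRCm38. The miRNA counting step, its annotation version and strand setting are not given in the sources used here. The deposited RPM values were scaled by the authors to each library's total, and 100% of them were whole multiples of 1 read (tolerance 0.01). The authors' own columns of fold changes and p-values were not used.

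Values were tested as log2(RPM + 1) by limma 3.58.1 with a trended prior (R 4.3.3), two-sided, over all 718 entries without a filter. The methods state no test for this table. Partner ratios were compared by exact permutation tests. edgeR 4.0.16 and DESeq2 1.42.0 on recovered reads, other scalings, pseudocounts and filters, thinning to 50534 reads, a replicate block and leaving out each library were alternatives. One of them, RPM without miR-375-3p, was chosen after seeing the data. No pairing of libraries by replicate number is stated. Deviations from the group means correlated at -0.05, 0.13 and -0.11 between libraries of the same number, and from -0.20 to 0.21 between libraries of unlike number. With 3 libraries per group these values cannot settle whether the numbers pair the libraries. The limma step was tested on simulated data, where 0% of its calls above 100 RPM were false. The simulation gave every entry the same assumed spread in both groups, which the real libraries did not have. It therefore does not measure the share of false calls in these data.

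The members and lists were chosen with earlier results of these data known. Named miRNAs were the members, their opposite and antisense arms, entries sharing a seed, and the 5 entries detected in all 6 libraries that correlated best with the members' mean log2 level. List members were counted, with called ones named. Arms miR-24-1-5p and miR-3074-1-3p were not analysed here. Sequences came from RefSeq, which matched 424 of the 479 entries with a miRBase name, and loci from the GRCm38.p6 annotation.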

Additional observations from a re-analysis of the deposited data

How the results depend on the processing

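Each fold change was computed in 20 alternatives and each ratio in 8. miR-23b-3p was higher in aid-sEVs in all 20 and was called in 2, with TMM factors (2.24) and without nid-sEV replicate 1, and leaving out 1 library gave 1.34 to 2.19. The fold changes of the other members turned sign in some. miR-23a-3p was -0.076 over miRBase-named entries and -0.17 with edgeR and TMM, and -0.25 to 0.44 with 1 library left out. miR-27a-3p was 0.26 with TMM factors and -1.22 to 0.26 with 1 library left out. miR-27b-3p was 0.029 with TMM factors and 0.052 with edgeR without a filter. miR-24-3p was 0.45 with TMM factors, 0.13 after centring, 0.43 with edgeR without a filter, 0.018 with edgeR and DESeq2's size factors, 0.016 with DESeq2, and -0.32 to 0.14 with 1 library left out. The log2 difference of the miR-27b to miR-27a ratio ran from -0.82 to 0.55, and that of miR-27a to miR-23a from -0.97 to 0.16, with 1 library left out. The other 4 ratios kept their direction in all 8 alternatives, though that of the b to the a cluster came to -0.0015 without nid-sEV replicate 3. The causes were not tested.

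The number of members called, 0, became 1 with TMM factors and was 0 to 1 with 1 library left out. The number of entries called, 125, was 71 with a pseudocount of 10 RPM, 78 above a mean of 10 RPM, 38 when refitted on entries detected in all 6 libraries, 69 with edgeR and TMM, 63 with edgeR without a filter or with DESeq2's size factors, 69 after thinning, and 34 to 176 with 1 library left out, the ends being without nid-sEV replicate 2 and without nid-sEV replicate 1. With the replicate block, limma called 0 entries (187 at an unadjusted p under 0.05), and the adjusted p of miR-23b-3p was 0.22. Whether the numbers pair the libraries is not stated. Depth limits the nid-sEV values of miR-23b-3p and miR-27a-3p most, since replicate 3 held 8 and 12 reads of them.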

Other observations

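Among 172 miRBase-named entries detected in all 6 libraries, the 5 whose log2 levels followed the mean log2 level of the family most closely were miR-21a-5p (Pearson r = 0.98), miR-26b-5p (0.96), miR-93-5p (0.93), miR-30e-5p (0.92) and miR-30c-5p (0.92). These values describe 6 libraries, in each of which all entries share 1 depth and 1 scaling, and carry no test. miR-21a-5p, a miRNA widely expressed in proliferating and inflamed tissue, was at 2145, 2040 and 336 RPM in the nid-sEVs and 1762, 1527 and 2364 RPM in the aid-sEVs. All 5 were lowest in nid-sEV replicate 3, the library with 34.6% of its reads in miR-375-3p, and none was called by limma (adjusted p from 0.41 to 0.90). Within the nid-sEVs all 5 family members were lowest in that library too, and miR-27b-3p was the only 1 of them with a lower value in an aid-sEV library.

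Within the family, over the same 6 libraries and also without a test, the a cluster partners followed each other (Pearson r of log2 levels 0.82 for miR-23a-3p and miR-27a-3p), while the b cluster partners did not (-0.46 for miR-23b-3p and miR-27b-3p). miR-24-3p followed miR-27a-3p (0.85) more closely than miR-23a-3p (0.67), miR-27b-3p (0.58) or miR-23b-3p (0.28). Across the clusters, r was 0.60 for miR-23a-3p and miR-23b-3p and 0.60 for miR-27a-3p and miR-27b-3p. It was 0.28 for miR-27a-3p and miR-23b-3p and 0.06 for miR-23a-3p and miR-27b-3p. Each r covers both groups together, so differences between the groups enter it.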
